A study of Homo sapiens with 4 samples.

Results

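The genes described here encode the proteasome, and were chosen by name: protein-coding genes whose GENCODE release 29 symbol begins with PSM, a letter from A to G and a digit. Of the 49 genes so named, 34 had at least 1 skipped-exon event in both deposited summaries. These held 114 of the 45977 events in both, 110 through the skipped exon itself and 4 through both flanking exons, and they describe 103 different skipped exons. The name also takes in PSMC3IP, which encodes a recombination factor and no proteasome subunit, and the PSMG genes, which encode assembly chaperones. PSMD5, PSMD9 and PSMD10 encode assembly chaperones too, but the groups below follow the gene names, so these 3 are counted with the non-ATPase subunits.

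The cells were MDA-LM2, a human breast cancer line selected from MDA-MB-231 for metastasis to the lung. All received RNA by lipofection, either the SSE mimetic, an RNA made to mimic a structural splicing enhancer, or a scrambled oligo as control, with 2 samples in each group. The deposited tables hold 1 result per group, taken here as a pool of its 2 samples. There is thus no spread between samples, and every interval below covers counting error only. The comparison asks whether the mimetic alters how often exons are kept.

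The proteasome degrades proteins tagged with ubiquitin. Its 20S core is a stack of rings of alpha subunits (PSMA genes) around rings of beta subunits (PSMB genes), some of which carry the proteolytic sites. The 19S cap has a ring of ATPases (PSMC genes) that unfolds substrates and pulls them in. Its non-ATPase subunits (most PSMD genes) include those that bind and remove ubiquitin. PA28 and PA200 activators (PSME genes) and the inhibitor PI31 (PSMF1) bind the core as well.

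Inclusion is given as Ψ, the fraction of transcripts that keep the exon, as estimated by the authors with the program MISO, followed by its 95% credible interval. Reads are of 3 useful kinds: inclusion reads match only the form with the exon, skipping reads only the form without it, and shared reads both. An exon was tested when each pool had at least 10 inclusion plus skipping reads. A call needed a deposited Bayes factor (how much better the reads fit unequal than equal Ψ) of 10 or more, together with a change in Ψ of 0.1 or more. The scrambled pool was deeper, with 3.94 times as many assignable reads (all 3 kinds) over all events and 1.54 times as many reads that matched neither form. Of 6 genes that mark cells of the MDA-MB-231 type, 3 had events, and these held 5821 (SSE mimetic) and 56076 (scrambled oligo) assignable reads for CD44, 226 and 1090 for AXL, and 31 and 482 for ANXA1. Luminal, leukocyte and endothelial markers with events (ESR1, CDH1, PTPRC, CD3E and CDH5) held between 2 and 40 reads in the SSE mimetic pool and between 13 and 81 in the scrambled pool. VIM, CAV1 and KRT18 had no event, and gene levels were not analysed here.

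Of the 103 proteasome exons, 72 in 30 genes were tested, and 3 were called, 2 higher and 1 lower with the SSE mimetic. Among all 8228 tested exons 3.99% were called, with 3.1% higher and 0.887% lower, so the 3 proteasome calls are near the background share. All 3 lie in genes of 20S alpha subunits, PSMA4 and PSMA6. The first is a coding exon of PSMA4 whose Ψ was 0.40 (0.24 to 0.60) in the SSE mimetic pool, against 0.93 (0.83 to 0.99) in the control pool. The others are an exon of PSMA6 that carries a premature stop codon, at 0.13 (0.07 to 0.21) against 0.02 (0.01 to 0.03), and a coding exon of PSMA6, at 0.41 (0.28 to 0.58) against 0.18 (0.16 to 0.21). A second PSMA4 exon differed as much, at 0.13 (0.06 to 0.25) against 0.70 (0.58 to 0.86), but had too few reads to be tested.

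The sequences of these exons are shown because leaving out or keeping each would change the encoded protein in a different way. They are taken from GENCODE release 29 transcripts (hg38, plus strand, 5′ to 3′). For the exon of 163 nt, the capitals mark first the start codon annotated in transcript PSMA4-216, which lacks the 43-nt exon, and then the stop codon that the usual start codon meets when the 43-nt exon is left out. For the PSMA6 exon of 325 nt, its first 128 bases are shown, up to the in-frame stop codon in capitals.
PSMA4 exon of 43 nt (chr15:78542177-78542219): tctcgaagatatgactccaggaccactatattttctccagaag
PSMA4 exon of 163 nt (chr15:78542483-78542645): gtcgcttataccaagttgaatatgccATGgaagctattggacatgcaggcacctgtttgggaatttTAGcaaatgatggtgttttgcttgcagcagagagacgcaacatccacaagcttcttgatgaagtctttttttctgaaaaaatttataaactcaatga
PSMA4 exon of 78 nt (chr15:78544190-78544267): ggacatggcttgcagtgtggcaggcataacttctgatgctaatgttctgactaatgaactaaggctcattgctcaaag
PSMA6 exon of 325 nt, first part (chr14:35292953-35293080): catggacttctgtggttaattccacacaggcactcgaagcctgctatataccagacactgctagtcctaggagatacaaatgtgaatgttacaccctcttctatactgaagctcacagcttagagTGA
PSMA6 exon of 95 nt (chr14:35314361-35314455): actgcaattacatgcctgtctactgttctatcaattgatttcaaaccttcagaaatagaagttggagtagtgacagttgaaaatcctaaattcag

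PSMA4 encodes an alpha subunit of the 20S core. Its 43-nt exon is exon 3 of 9 in transcript PSMA4-201. The exon's length is not a multiple of 3. Without it, the reading frame of 261 codons would end after 23 codons, at the stop codon marked in the 163-nt exon. The 78-nt exon is exon 5, and its length is a multiple of 3, so that a transcript without it would keep the frame and encode 235 codons. GENCODE annotates 1 transcript that joins the exons on either side of the 43-nt exon, and likewise 1 for the 78-nt exon.

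The reads behind the 43-nt exon of PSMA4 were 20 inclusion, 0 skipping and 137 shared reads in the SSE mimetic pool. In the scrambled pool they were 168, 0 and 429. Neither pool therefore held a read across the skipping junction, and the inclusion share of isoform-specific reads was 100% in both. What differed was the balance of inclusion and shared reads: inclusion reads were 8.4 times more numerous in the scrambled pool and shared reads 3.13 times. The authors' Bayes factor was 4.55e+06, and Fisher's exact test on inclusion and skipping reads, which compares these pools and not the conditions, gave an adjusted p of 1 (Benjamini-Hochberg over all tested exons).

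The 78-nt exon of PSMA4 showed the same balance. The SSE mimetic pool held 7 inclusion, 0 skipping and 137 shared reads and the scrambled pool 140, 2 and 441, with a Bayes factor at the program's cap of 1e+12. Inclusion reads were thus 20 times as many in the scrambled pool, and shared reads 3.22 times. Both windows have the 163-nt exon as a flank, so they are not independent readings. Tested as a skipped exon itself, the 163-nt exon had 157 inclusion reads against 600, a ratio of 3.82, and Ψ of 0.97 (0.86 to 1.0) against 0.98 (0.95 to 1.0). Another PSMA4 exon, of 124 nt, had 49 against 812 inclusion reads and 0 against 8 skipping reads, with Ψ of 0.94 (0.84 to 0.99) against 0.98 (0.97 to 0.99). The 163-nt exon thus had a smaller ratio of scrambled to SSE mimetic inclusion reads than the 43-nt, 78-nt and 124-nt exons. The part of that difference in the 2 low Ψ values was not tested. With the scrambled reads scaled down by 3.94, the recomputed difference of the 43-nt exon went from -0.531 to -0.476 and it was still called.

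**Figure D1:**
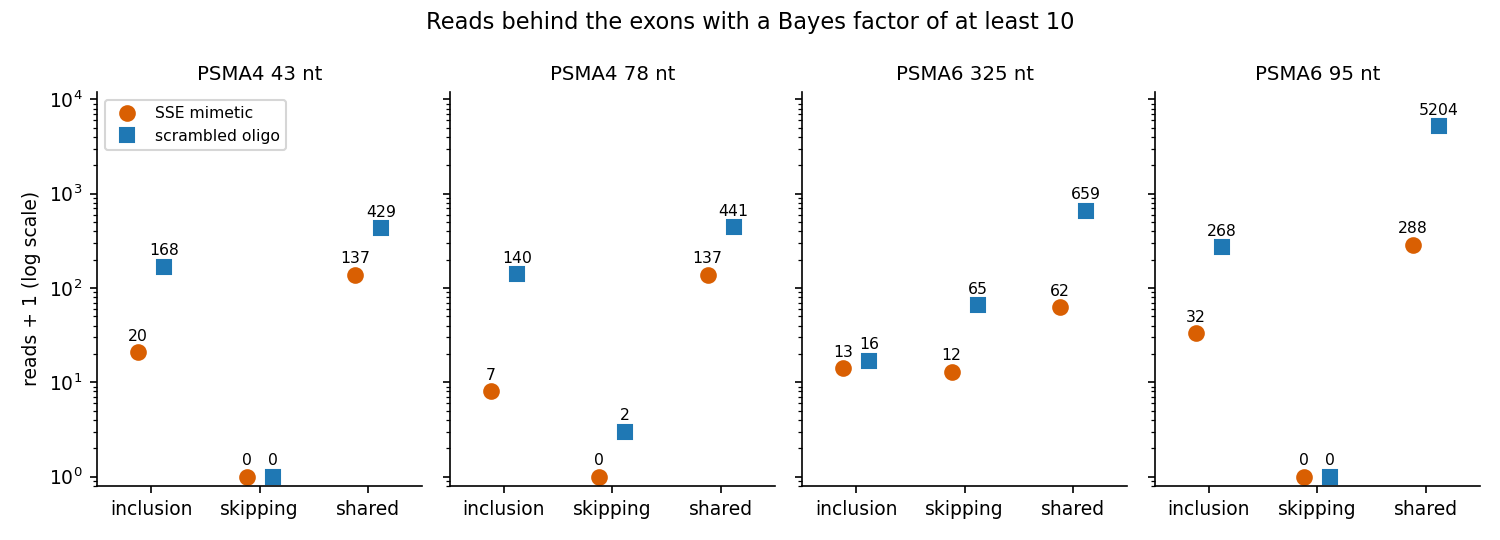
Reads of each kind for the 4 proteasome exons with a Bayes factor of at least 10 and a Ψ difference of at least 0.1 (y axis: reads plus 1, log scale; circles, SSE mimetic pool; squares, scrambled pool; the read number stands above each point). Only the 325-nt exon of PSMA6 has skipping reads in both pools, 12 and 65.

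PSMA6 encodes the alpha subunit also called iota. Its 325-nt exon lies between the first exon and the next coding exon, and in GENCODE it belongs to 1 transcript, PSMA6-203, marked as a target of nonsense-mediated decay, the pathway that destroys transcripts with premature stop codons. In that transcript the frame ends after 67 codons inside this exon, 197 bases before its end and with 4 exons still to follow, while 8 annotated transcripts skip the exon. In the SSE mimetic pool 13 reads showed inclusion and 12 skipping, and in the scrambled pool 16 and 65. The inclusion share was 52% (95% Clopper-Pearson interval 31.3 to 72.2) against 19.8% (11.7 to 30.1), intervals that do not meet. By Fisher's exact test the unadjusted p was 0.00378, and the p adjusted over all tested exons 0.164.

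This was the 1 called proteasome exon with skipping reads on both sides of the comparison, and its direction was the same in Ψ and in the reads themselves. Skipping reads were 5.42 times as many in the scrambled pool and shared reads 10.6 times, whereas inclusion reads were only 1.23 times as many. Reads that matched neither form numbered 628 and 1028. When the read density of the flanking introns was subtracted from the exon reads, the difference recomputed with a 2-isoform model went from 0.112 to 0.0403. The recomputed Bayes factor was then 12.3, but the exon was no longer called because the difference was under 0.1. The exon was also not called with a Bayes factor of at least 100, since the authors' value was 39.6.

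The 95-nt exon of PSMA6 is exon 6 of 7 in transcript PSMA6-201, and without it the 246 codons would end after 203 in a shifted frame. Neither pool had a skipping read for it. Inclusion reads numbered 32 in the SSE mimetic pool and 268 in the scrambled pool, a ratio of 8.38, and shared reads 288 and 5204, a ratio of 18.1. Its upstream flank is an exon of 179 nt (chr14:35312881-35313059), and as a skipped exon that flank had 328 inclusion reads against 5488, a ratio of 16.7, with Ψ of 0.99 (0.97 to 1.0) against 1.0 (1.0 to 1.0). The larger read ratio of that flank moved with the lower Ψ of the 95-nt exon in the scrambled pool, and its part in the call was not tested. The Bayes factor was 280, and the recomputed difference was 0.225, or 0.222 with the scrambled reads scaled down by 3.94.

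The other PSMA6 exons showed no call. A second exon of 95 nt (chr14:35307994-35308088) had Ψ of 0.92 (0.77 to 0.99) against 0.71 (0.61 to 0.81), with 0 against 5 skipping reads and a Bayes factor of 3.99. An 83-nt exon that GENCODE lists only in a transcript marked for nonsense-mediated decay (chr14:35310217-35310299) was almost always skipped, with 0 inclusion and 52 skipping reads against 1 and 243. All tested PSMA6 exons but the 325-nt one also belong to a second annotated gene, AL121594.1, and GENCODE names 4 PSMA6 pseudogenes. Reads from either could not be told apart from PSMA6 reads here.

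**Figure D2:**
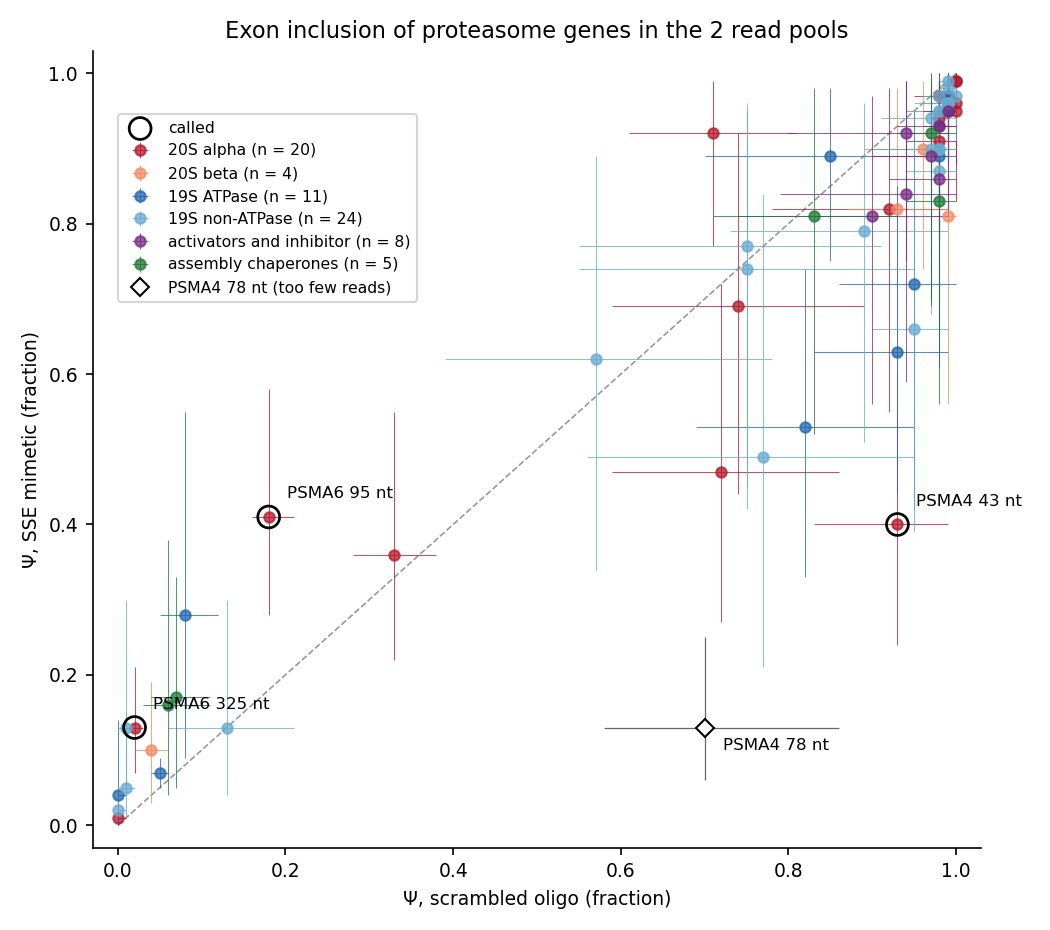
Ψ of the 72 tested proteasome exons in the scrambled pool (x axis) and the SSE mimetic pool (y axis), as fractions, with 95% credible intervals and colours for subunit groups; the dashed line marks equal Ψ. The 3 called exons are ringed, and the open diamond is the 78-nt exon of PSMA4, at 0.13 and 0.70, which had too few reads.

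Of the 20 tested exons of 20S alpha genes, then, 2 were called higher, 1 lower and 17 were not called. Coding exons of PSMA1 (111 and 130 nt) and of PSMA2 (133 and 77 nt) had Ψ between 0.95 and 0.97 with the mimetic and of 0.99 in the control pool. These exons also matched a second annotated gene, AC018523.2 for PSMA1 and AC010132.3 for PSMA2. Over all groups, 14 of the 72 tested exons matched another annotated gene as well, and reads of such genes could not be told apart here. In PSMA3, named for its known splice forms, the 83-nt exon (chr14:58247750-58247832) had Ψ of 0.95 (0.83 to 0.99) against 1.0 (0.99 to 1.0), and 2 overlapping forms of the next exon, of 124 and 119 nt, had 0.91 (0.77 to 0.99) against 0.98 (0.94 to 1.0) and 0.82 (0.55 to 0.98) against 0.92 (0.78 to 0.99). These forms end at the same base and differ in where they begin. PSMA5 had 1 tested exon, of 67 nt, at 0.47 (0.27 to 0.72) against 0.72 (0.59 to 0.86), with a Bayes factor of 1.58.

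Genes of 20S beta subunits gave 4 tested exons in PSMB3, PSMB5 and PSMB7, and none was called. PSMB5, which carries the chymotrypsin-like activity, had a 307-nt coding exon (chr14:23033368-23033674) at 0.90 (0.74 to 0.99) against 0.96 (0.89 to 1.0). A 116-nt exon of PSMB7 (chr9:124405317-124405432), the trypsin-like subunit, was at 0.81 (0.56 to 0.98) against 0.99 (0.97 to 1.0), with 19 against 336 inclusion reads and a Bayes factor of 0.79. The credible intervals of both exons overlap between the pools. Of the 11 PSMB genes 8 had no event in both summaries, the inducible subunit gene PSMB8 among them.

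Among the 19S ATPases, 11 exons of PSMC1, PSMC3, PSMC5 and PSMC6 were tested and none was called. The most isoform-specific reads, summed over both pools, fell on a 97-nt exon of PSMC1 (chr14:90260115-90260211), which was at 0.95 (0.88 to 0.99) against 0.99 (0.98 to 1.0). Next came a 63-nt exon of PSMC3 (chr11:47424429-47424491), at 0.97 (0.89 to 1.0) against 0.99 (0.98 to 1.0). The largest difference of any tested but uncalled proteasome exon was in PSMC5, where a 127-nt coding exon (chr17:63830809-63830935) was at 0.63 (0.44 to 0.85) against 0.93 (0.83 to 0.99). Its reads were 39 inclusion, 0 skipping and 169 shared in the SSE mimetic pool and 264, 1 and 712 in the scrambled pool, and its Bayes factor was 4.04. A 68-nt exon of PSMC6 (chr14:52711101-52711168) was at 0.53 (0.33 to 0.74) against 0.82 (0.69 to 0.95), with no skipping read in either pool and a Bayes factor of 3.25. For both exons the lower Ψ thus came without any skipping read in the SSE mimetic pool. GENCODE names 13 pseudogenes after PSMC1, and how the authors' alignment divided reads among such copies is not given in the labels.

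The PSMD genes, grouped by name as non-ATPase subunits of the cap, contributed the most exons, 24 in 11 genes, and none was called. PSMD2, which encodes a large scaffold subunit of the cap's base, had 4 overlapping forms of 1 exon. Their inclusion reads were between 152 and 273 in the SSE mimetic pool, and Ψ between 0.94 and 0.98 against 0.97 to 0.99. All 4 forms had the same shared reads, 119 in the SSE mimetic pool and 332 in the scrambled pool. Each Ψ sets 1 form against skipping, not against the other forms. PSMD4 encodes the ubiquitin receptor Rpn10 and is known for several splice forms. Its 216-nt exon (chr1:151265394-151265609) was at 0.96 (0.87 to 1.0) against 0.99 (0.97 to 1.0), and its 39-nt exon (chr1:151266940-151266978) was skipped by all 20 and all 101 isoform-specific reads. A 126-nt form of a PSMD13 exon (chr11:251820-251945) was at 0.66 (0.39 to 0.91) against 0.95 (0.90 to 0.99), while the 117-nt form, which begins at the same base, was at 0.97 (0.92 to 0.99) against 0.98 (0.96 to 0.99). Both forms had 45 shared reads with the mimetic and 183 without it, and inclusion reads were 12 against 143 for the long form and 79 against 289 for the short one.

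Activators and the inhibitor PI31 gave 8 tested exons in PSME2, PSME3, PSME4 and PSMF1, and none was called. The differences ran from -0.12 to -0.02. In PSME2, an interferon-inducible PA28 subunit, exons of 55 nt (chr14:24143975-24144029) and 33 nt (chr14:24146208-24146240) had Ψ of 0.95 (0.81 to 1.0) against 0.99 (0.96 to 1.0) and of 0.93 (0.78 to 1.0) against 0.98 (0.96 to 1.0). The PSMG assembly chaperones gave 5 exons, also with no call. A 107-nt exon of PSMG1 (chr21:39181772-39181878) was at 0.83 (0.56 to 0.99) against 0.98 (0.94 to 1.0), and a 76-nt exon of PSMG4 (chr6:3263684-3263759) at 0.92 (0.69 to 1.0) against 0.97 (0.93 to 1.0). PSMC3IP had 1 exon, with 1 isoform-specific read in the SSE mimetic pool and 6 in the scrambled pool, and was not tested.

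Over the 72 tested exons the median difference in Ψ was -0.03 (interquartile range -0.08 to 0), the same median as over all tested exons. Ψ was lower with the SSE mimetic in 53 exons, higher in 17 and equal in 2. Of the 47 exons with Ψ of at least 0.9 in the scrambled pool, 46 were lower, or 97.9%, and among all tested exons of that kind the share was 94.6%. Of the 13 with Ψ of at most 0.2, 12 were higher, or 92.3%, against 86.1% of all tested exons of that kind. These strata are cut on 1 of the 2 values compared, and values there can move mostly one way. With the scrambled reads scaled down to the SSE mimetic depth, the median recomputed difference went from -0.0374 to -0.011 in the first stratum and from 0.0657 to 0.0551 in the second. Over all tested exons of these strata it went from -0.0554 to -0.0084 and from 0.0431 to 0.0247. Credible intervals were apart for 4 of the 72 exons, the 3 called ones and the 126-nt exon of PSMD11, against 5.87% of all tested exons.

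Proteasome exons were somewhat shorter than the tested exons at large, with a median of 117 nt against 157 nt, and 58 of the 72 were coding. Exon lengths that preserve the frame were found in 23 of 72, or 31.9%, against 41.3% of all tested exons. No skipping read was seen in either pool for 44 of them, or 61.1%, against 54.8% of all tested exons, and for such exons Ψ rests on inclusion and shared reads alone.

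A separate group of proteasome exons was rarely kept and did have skipping reads. Of the 13 exons with Ψ of at most 0.2 in the scrambled pool, 11 had skipping reads, and of these 11 the SSE mimetic pool had the larger inclusion share in 7, the smaller in 2 and an equal one in 2. Over all 1294 tested exons of that kind it was larger in 61.2%, so 7 of 11 is near the background. Besides the 325-nt exon of PSMA6, the 126-nt exon of PSMD11 (chr17:32454752-32454877) had 2 inclusion and 11 skipping reads against 0 and 85. PSMD11 encodes a lid subunit tied to proteasome assembly. Its Ψ was 0.13 (0.04 to 0.30) against 0.01 (0.00 to 0.02), the Bayes factor 2.29, and the unadjusted Fisher's exact p 0.0164 (adjusted p 0.445). The 0 of 85 scrambled reads give an exact 95% binomial interval of the inclusion share that reaches up to 4.25%. With the intron density subtracted, the recomputed difference of the PSMD11 exon went from 0.108 to 0.0392. Fisher's exact test can find a difference only where there are skipping reads, which 28 of the 72 exons had, 1 of the 3 called ones among them. Of these 28, none passed after adjustment over all tested exons, against 2.23% of the 3719 tested exons with a skipping read. The exons of PSMA6 and PSMD11 were the 2 with an unadjusted p under 0.05, against 12.2% of those 3719.

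None of the other rarely kept exons with skipping reads was called. An exon of PSMD8 in a transcript marked for nonsense-mediated decay (164 nt, chr19:38381149-38381312) had 2 inclusion and 70 skipping reads against 2 and 316. An exon of PSMD7 in such a transcript (170 nt, chr16:74299576-74299745) had 3 and 7 against 12 and 21. In PSMC5 a 250-nt exon of the 5′ untranslated region (chr17:63827674-63827923) had 7 and 4 against 28 and 56, an inclusion share of 63.6% (30.8 to 89.1) against 33.3% (23.4 to 44.5). Its Ψ was 0.28 (0.09 to 0.55) against 0.08 (0.05 to 0.12), a larger difference than that of the called 325-nt exon of PSMA6 but on 11 isoform-specific reads in the SSE mimetic pool, with a Bayes factor of 0.87. An 85-nt exon of PSMB5 (chr14:23027745-23027829) had 3 and 18 against 8 and 122. Overlapping exons of PSMG4, of 152 and 117 nt, had 3 and 8, and 2 and 8, against 12 and 84, and 10 and 84. Their Ψ was 0.17 (0.05 to 0.33) against 0.07 (0.04 to 0.11) and 0.16 (0.04 to 0.38) against 0.06 (0.03 to 0.11). The intervals of the inclusion share overlap between the pools for each of these exons. With the intron density subtracted, the recomputed difference went from 0.207 to 0.0541 for the PSMC5 exon. For the PSMG4 exons it went from 0.114 to 0.0294 and from 0.0926 to 0.0248. It went from 0.0137 to 0.00474 for PSMD8 and from 0.0118 to -0.0244 for PSMD7, but rose from 0.0657 to 0.076 for PSMB5.

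**Figure D3:**
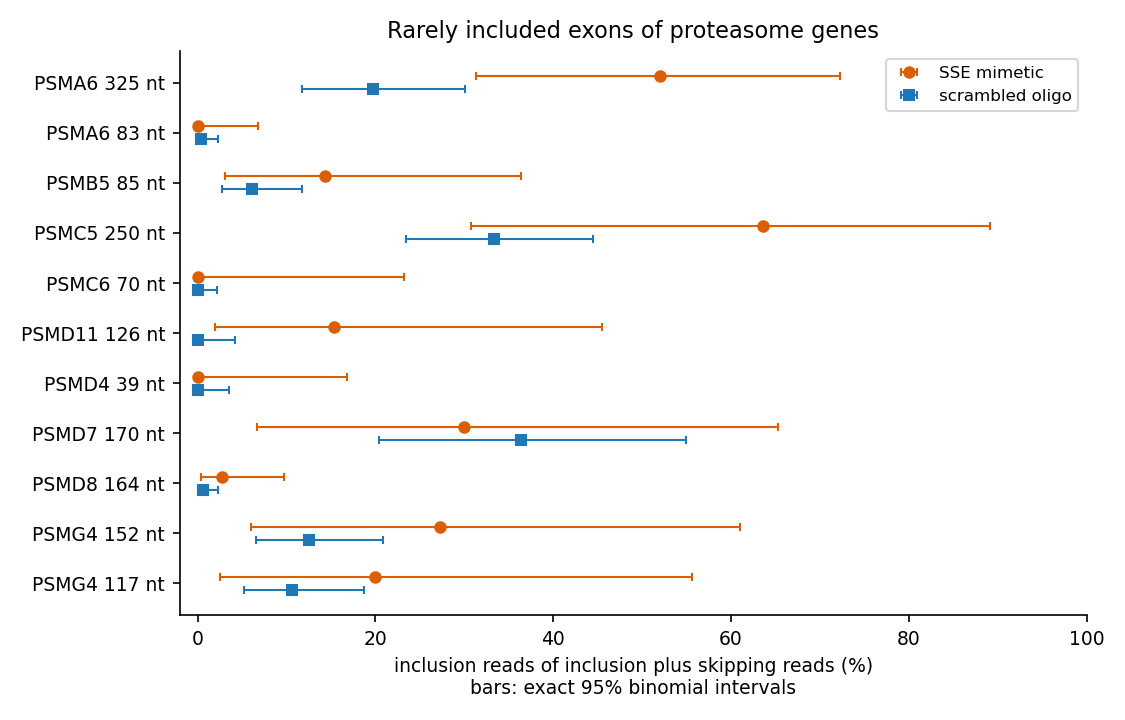
Inclusion reads as a percentage of inclusion plus skipping reads for the 11 tested proteasome exons with Ψ of at most 0.2 in the scrambled pool and at least 1 skipping read (circles, SSE mimetic; squares, scrambled oligo; bars, exact 95% binomial intervals, which cover counting error only). The intervals are apart for the 325-nt exon of PSMA6 alone.

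The ratio of inclusion reads in the scrambled pool to those in the SSE mimetic pool had a larger median among proteasome exons than among all tested exons. The scrambled pool held a median of 5.18 times as many inclusion reads per proteasome exon (69 exons with at least 1 such read in the SSE mimetic pool), and 3.36 times over all 7862 such exons. A ratio above 8 was found for 15 of 69, or 21.7%, against 9.96% of all. Without PSMA4 and PSMA6 the median was 5.09 (60 exons), and 9 of 60, or 15%, were above 8. The gap was narrower among similarly kept exons: among exons with Ψ of at least 0.9 in the scrambled pool the median was 5.2 for proteasome exons and 4.62 for all tested exons. The scrambled pool held 4.73 times as many isoform-specific reads over all events. Coverage differed as well: proteasome exons had a median of 31 (SSE mimetic) and 173 (scrambled oligo) isoform-specific reads, against 19 and 78 over all tested exons. An exon with few scrambled reads could reach the minimum of 10 in the SSE mimetic pool only if its ratio was small. The part of coverage in the gap was not tested. By group the median ratio of inclusion reads was 7.4 for 20S alpha, 5.89 for 20S beta, 5.64 for 19S ATPases and 4.15 for PSMD genes. It was 4.59 for activators and PI31 and 5.0 for PSMG genes. The highest were the overlapping 197-nt and 179-nt forms of a PSMA6 exon (18.7 and 16.7), the PSMB7 exon (17.7), the 124-nt exon of PSMA4 (16.6) and the 83-nt exon of PSMA3 (13.5). Exons of 1 gene share transcripts and some share reads, so these are a description without a test. Pool depth, coverage, less proteasome mRNA per cell and a smaller part of spliced RNA in the library cannot be told apart with these files.

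**Figure D4:**
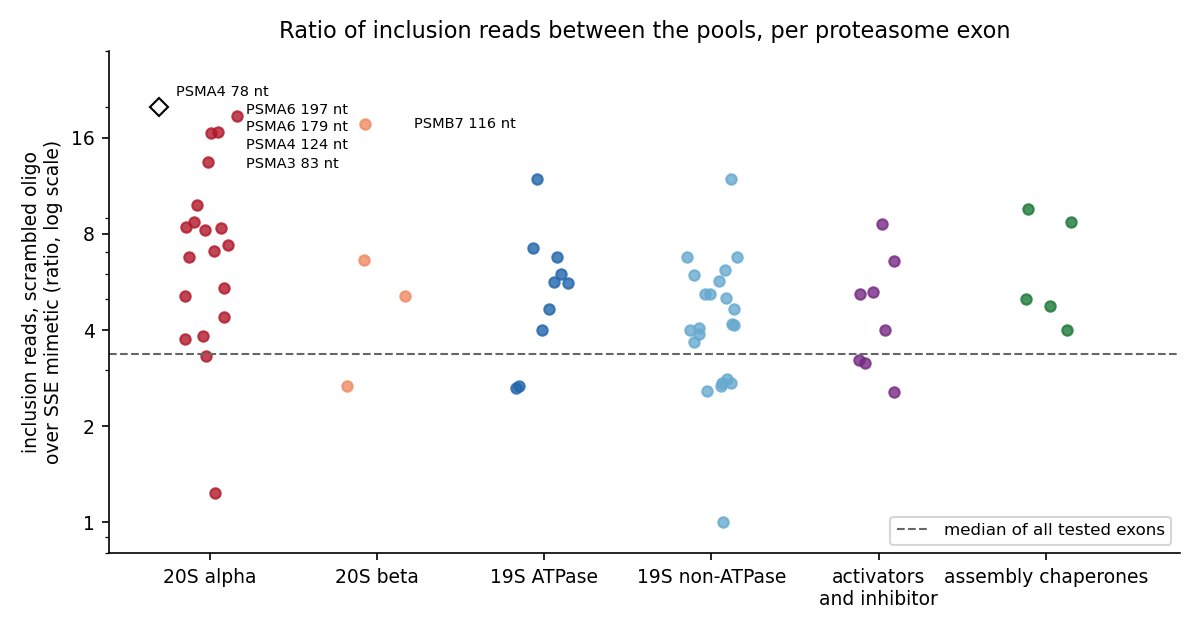
Inclusion reads in the scrambled pool divided by those in the SSE mimetic pool (y axis, log scale) for the 68 tested proteasome exons with inclusion reads in both pools, by subunit group; points are spread sideways for visibility, and the open diamond is the untested 78-nt exon of PSMA4, at 20. Most points lie above the dashed line, the median of 3.36 over all tested exons. That median was 4.62 over all tested exons with Ψ of at least 0.9 in the scrambled pool. Over all events the scrambled pool held 4.73 times as many isoform-specific reads.

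A list of other genes of the ubiquitin-proteasome pathway held 39 symbols, of which 16 had tested exons. Of their 32 exons 2 were called higher, none lower and 30 were not called, beside 3.99% of all tested exons called. Of the called ones, that in NGLY1 is described here. NGLY1 encodes the glycanase that takes part in activation of the proteasome transcription factor NRF1. Its 140-nt exon (chr3:25777701-25777840) was at 0.28 (0.15 to 0.47) against 0.06 (0.03 to 0.12), with 9 inclusion and 9 skipping reads against 7 and 34 (Fisher's exact p 0.39, adjusted over all tested exons). With the scrambled reads scaled down by 3.94 the recomputed Bayes factor of the NGLY1 exon was 1.36, and it was not called. With the intron density subtracted, the recomputed difference of this exon was 0.205 and the Bayes factor 27.9, which met both thresholds. The median difference over the 32 exons was -0.02. Exons of POMP, the maturation chaperone of the core, and of NFE2L1, which encodes NRF1, were not among the tested ones.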

How the data were processed

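MISO output for skipped exons was deposited, per the file names, with 1 result per group. That both samples of a group went into its result was assumed. Reads were aligned with STAR 2.7 to hg38, per the submitters' processing notes; the sources used here name neither the MISO version nor how samples were pooled. As deposited by the authors, Ψ and its bounds are fractions, each Bayes factor a ratio and the difference a signed score (SSE mimetic minus scrambled oligo); read classes are text.

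Events were matched to GENCODE 29 by exact exon coordinates and reduced to 1 per skipped exon, the one with the most isoform-specific reads. Ψ and Bayes factors were recomputed with a 2-isoform likelihood (uniform prior, 501 grid points, read length 76 nt, chosen for its correlation with the deposited Ψ). The model and Fisher's exact test were tested on reads simulated for 2 isoforms with known Ψ. Those data held no intron reads and no uneven coverage along a gene, so they cannot show how such features affect the calls. Named exons were the called ones, the 2 uncalled ones per group with the most isoform-specific reads, the 3 largest uncalled differences, PSMD4, PSMA3 and PSMB8 exons (no PSMB8 exon had an event) and those short of reads with a Bayes factor of at least 10; a few others named for their read counts were chosen after their values were seen. 1 called exon of the pathway list is not reported here. The members and lists were chosen with earlier results of these data known. Tools were Python 3.11.15, numpy 2.4.6, scipy 1.17.1 and statsmodels 0.14.6.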

Additional observations from a re-analysis of the deposited data

How the results depend on the processing

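The 3 proteasome calls were also 3 with a Bayes factor of at least 5, at least 20 isoform-specific reads, every event counted, recomputed Ψ and either scaling of the scrambled reads. They became 4 with at least 5 reads, and 2 with a Bayes factor of at least 100, a difference of at least 0.2 or the intron density subtracted. Fisher's exact test in place of the Bayes factor left 0 (2 of the 3 had no skipping read, so it could not call them), and the inclusion share in place of Ψ left 1, the 325-nt exon of PSMA6. Without PSMA6 there was 1, and without exons of a second annotated gene 2, both chosen after seeing the data. Over all tested exons the 328 calls became 164 (Bayes factor of at least 100), 184 (at least 20 reads), 67 (Fisher's exact test), 196 (inclusion share), 163 (scrambled reads scaled by 3.94) and 148 (scaled by 4.73, added after seeing the data). The median proteasome difference of -0.03 became 0 with the inclusion share and -0.0003 and 0.0036 under those scalings. Among the alternative values of the 24 named exons, 238 kept direction and call, 14 became 0 with the inclusion share and no call on either side, 8 lost a call, 1 gained one (the 78-nt exon of PSMA4 with at least 5 reads) and 12 changed sign with no call on either side. The cause of these changes was not tested. No paired analysis was possible because the deposited values are 1 per group, and for the same reason no sample could be left out.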

Other observations

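Of the 103 proteasome exons, 31 were not tested, 26 because only the SSE mimetic pool had too few isoform-specific reads and 5 because both had. Among them a 117-nt exon of PSMD12, found in a transcript marked for nonsense-mediated decay, had Ψ of 0.59 against 0.16 and a Bayes factor of 4.95 on 5 and 4 isoform-specific reads. A 60-nt coding exon of PSMD12 had 0.59 against 0.95 and a Bayes factor of 2.61 on 9 and 117 reads. These exons were picked after their values were seen, and no other untested exon besides the 78-nt exon of PSMA4 had a Bayes factor of at least 10 with a difference of at least 0.1.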
